A study of Mus musculus with 5 samples.

Results

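The nuclei described here are inhibitory neurons of the Lhx6 and Sst lineage in single-nucleus multiome libraries of the mouse hippocampus, in which RNA and accessible chromatin were read from the same nuclei. Members were chosen by RNA levels, counted as unique molecular identifiers (UMIs, single captured transcripts). Each gene was scored by its depth-normalised level on a log scale, standardised over all nuclei with at least 1000 detected genes. A nucleus was a member when its mean score over Gad1, Gad2 and Slc32a1 was at least 1 and its mean score over Lhx6, Nxph1, Sst and Sox6 was above that over Adarb2, Vip, Npas1 and Prox1. This chose 1930 of 27681 nuclei. The other 756 nuclei that passed the Gad1, Gad2 and Slc32a1 score are called the Adarb2 and Vip lineage below. RNA differences between the lineages are therefore given as a description without a test.

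There was 1 library for each of 5 genotypes. They were wild type, 5xFAD, and 5xFAD combined with an astrocyte-specific, a neuron-specific or a global knockout of MAGL. The 5xFAD line carries mutant human transgenes of familial Alzheimer disease, APP among them, under the mouse Thy1 promoter, and all 3 MAGL-KO libraries are on that background. MAGL is monoacylglycerol lipase, encoded by Mgll, the main enzyme that degrades the endocannabinoid 2-arachidonoylglycerol. The labels give neither the Cre driver, age and sex nor the number of animals pooled, and they name the same batch for all libraries. Each genotype name stands below for the library labelled so. Lists of 5 values follow the order wild type, 5xFAD, astrocyte MAGL-KO, neuron MAGL-KO and global MAGL-KO. With 1 library a genotype no test between genotypes was possible, and the 95% intervals cover counting error only, not differences between animals.

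Lhx6 is a homeodomain transcription factor that directs interneurons born in the medial ganglionic eminence, and Sox6 and Satb1 act in the same program. In the hippocampus this lineage gives somatostatin cells that inhibit distal dendrites, parvalbumin basket and axo-axonic cells that inhibit the soma and the axon initial segment, and ivy and some neurogliaform cells. The Adarb2 and Vip lineage, from the caudal ganglionic eminence, gives the Cnr1-rich cholecystokinin cells, the Vip cells and other neurogliaform cells.

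The libraries held 323, 356, 442, 315 and 494 members, or 6.26% [5.61, 6.95], 6.95% [6.27, 7.68], 7.32% [6.67, 8.0], 7.86% [7.04, 8.73] and 6.73% [6.17, 7.32] of nuclei, with exact Clopper-Pearson intervals. The intervals of neighbours in order of level overlapped, and those of the lowest and highest, wild type and neuron MAGL-KO, did not. Members made up between 69.4% and 72.9% of the nuclei that passed the GABA score in each library. Their median depth ran from 19405.5 to 22983 UMIs per nucleus, and the summed members of a library held 9597070 to 12930044 UMIs. Between 29 and 63 cell barcodes were shared by each pair of libraries. The scores have no gap at their limits. The 113 nuclei with a GABA score from 1 to 1.1 had a Slc17a7 UMI, an excitatory marker, in 69.0% of cases, against 71.2% of the 118 nuclei from 0.9 to 1. The 58 nuclei whose Lhx6-group score was above the Adarb2-group score by at most 0.1 had an Lhx6 UMI in 3.45% of cases, against 5.88% of the 51 nuclei just on the other side.

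The chosen markers fitted the label for only a part of the members. An Lhx6 UMI was found in 45.8% of members against 2.12% of the Adarb2 and Vip lineage, at median depths of 20875 and 19082.5 UMIs. An Sst UMI was found in 64.7% against 34.9%, and Slc17a7, which inhibitory neurons should lack, in 40.6% against 42.7%. UMIs of Xist and of Y-linked genes occurred together in 21.6% to 26.9% of the members of a library, against 11.8% to 17.4% of all nuclei. Such members had median depths of 36672.5 to 55805 UMIs, against 16104.5 to 19872 for the rest. Members with Xist UMIs only numbered 128, 95, 183, 200 and 230, and those with Y-linked UMIs only 105, 173, 150, 42 and 140, so each library held nuclei of both kinds and in different proportions. Summed markers of excitatory neurons reached 470 to 536 CPM (a gene's UMIs summed over nuclei and scaled to the total of those nuclei) in members against 930 to 979 in all nuclei. Those of oligodendrocytes reached 97.2 to 153 CPM against 248 to 401, and those of astrocytes 99.6 to 138 against 224 to 261. Microglial markers stood at 38.4 to 65.8 CPM against 46.0 to 73.1, and markers of oligodendrocyte precursors, a list that holds Vcan, at 61.0 to 84.7 against 31.3 to 47.6. The Cajal-Retzius list, which holds Reln and Ndnf, summed to 537 to 664 CPM against 114 to 146, and vascular markers to 1.16 to 3.02 against 2.42 to 3.42. Markers of striatal or amygdala types summed to 119 to 272 CPM against 176 to 215. The part of these other nuclei in the values below was measured only where the text gives a value without them.

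Leiden clustering divided the members into 22 clusters, and clusters were named from fixed marker lists. Of these, 10, numbers 1, 4, 6, 7, 9, 10, 12, 14, 15 and 18, held 913 nuclei (47.3%) with Lhx6 at 37.1 to 92.0 CPM and Slc17a7 at 5.26 to 20.8 CPM, and 4.16% of these nuclei carried Xist and Y-linked UMIs together. They are called the 10 Lhx6 clusters below. This set was chosen after the values were seen. A further 6 clusters (0, 2, 3, 5, 16 and 17), with 709 nuclei (36.7%), had a median of 38464 UMIs and both kinds of sex-linked UMIs in 56.6% of nuclei. They had Slc17a7 at 75.4 to 136 CPM and also carried Lhx6, at 15.7 to 35.5 CPM. Cluster 16 also carried oligodendrocyte transcripts (Mbp at 520 CPM), and microglial Ly86 and Ctss led cluster 17. The last 6 clusters, with 308 nuclei (16%), had Lhx6 at 0 to 7.85 CPM and few mixed nuclei, and so went against the label. The map of members shows these sets apart from each other.

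**Figure D1:**
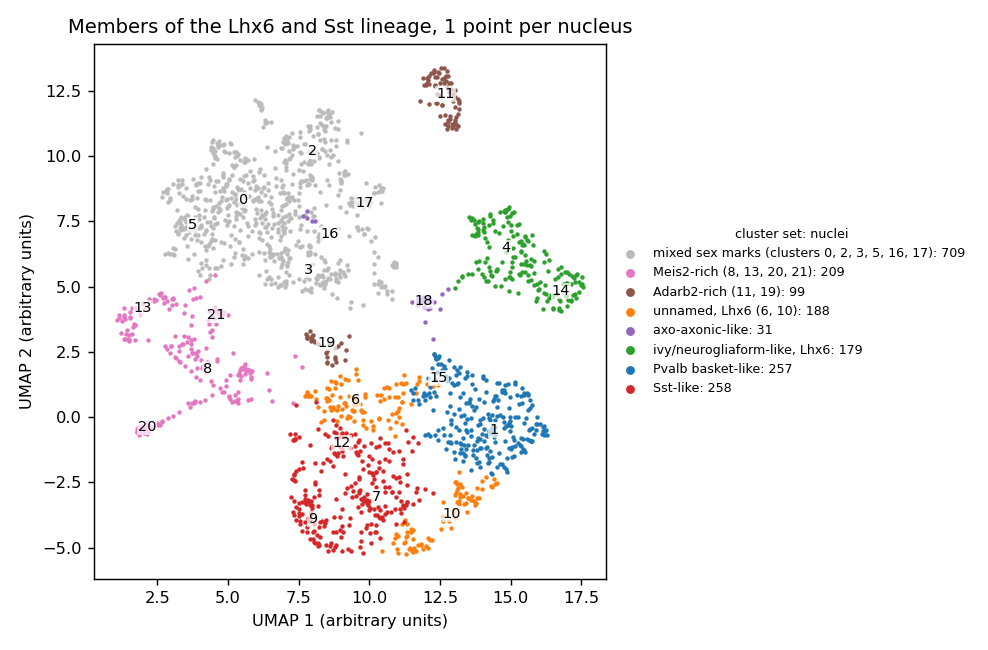
UMAP map of the 1930 members, 1 point per nucleus, with axes in arbitrary units, numbers for the Leiden clusters and colours for the sets described in the text. The clusters with mixed sex-linked UMIs (grey, 709 nuclei) lie apart from the 10 Lhx6 clusters, and the Meis2-rich and Adarb2-rich clusters lie apart from both.

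Among the 10 Lhx6 clusters, 3 were Sst-like (7, 9 and 12) with 258 nuclei. They held 36, 52, 65, 42 and 63 nuclei in the 5 libraries, or 11.1%, 14.6%, 14.7%, 13.3% and 12.8% of members, with overlapping intervals. Sst, the peptide that names these cells, stood at 2044, 1378 and 1337 CPM in clusters 7, 9 and 12. Eya1 and Lypd6 were among the 10 leading genes of cluster 7, and Cdh7 and the NMDA receptor subunit gene Grin3a among those of cluster 9. Npas1, which the rule counts for the other lineage, was also a leading gene of cluster 7, at 75.6 CPM against 7.01 in other members. It was raised in clusters 6, 9 and 10 as well. Cluster 12 was led by Npy at 799 CPM, and also carried Chodl (26.5 CPM) and Crhbp (159 CPM). Npy, Chodl and Nos1 are known markers of long-range projecting somatostatin neurons, so cluster 12 carries markers of both lists. Clusters 6 and 10, with 106 and 82 nuclei, were left unnamed although Sst stood at 845 and 1256 CPM. The orexigenic peptide receptor gene Qrfpr led cluster 6, and Corin, a protease gene, led cluster 10. Cluster 10 made up 4.33% of wild-type members, 1.69% [0.62, 3.63] of 5xFAD members (6 nuclei), 5.66% [3.69, 8.24] in astrocyte MAGL-KO, and 4.44% and 4.66% in neuron and global MAGL-KO, so the 5xFAD interval lies below that of astrocyte MAGL-KO.

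The Pvalb basket-like clusters 1 and 15 held 257 nuclei, with 42, 43, 51, 40 and 81 in the libraries. Pvalb, a calcium buffer of fast-spiking cells, reached only 40.1 and 51.0 CPM there, and 0.996 to 23.8 CPM in the other 8 Lhx6 clusters. Cluster 18, axo-axonic-like with 31 nuclei, had 6 of 6 listed markers raised and was led by the netrin receptor gene Unc5b at 192 CPM. Clusters 4 and 14, with 123 and 56 nuclei, were ivy and neurogliaform-like with Lamp5 at 170 and 165 CPM and the nitric oxide synthase gene Nos1 at 140 and 100 CPM. Sox6, at 65.7 and 42.4 CPM, and Satb1, at 7.47 and 0 CPM, were lower there than in the other 8 Lhx6 clusters. Adarb2 stood at 591 CPM in cluster 4 and at 2417 CPM in cluster 14, where it was raised against the other members. Cluster 4 had Tacr1, from the list of long-range cells, and no marker of its own list among its 10 leading genes, so clusters 4 and 14 are given by number below. Nkx2-1, the factor upstream of Lhx6 in the medial ganglionic eminence, was at its highest among the Lhx6 clusters in these 2, at 7.47 and 23.6 CPM.

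**Figure D2:**
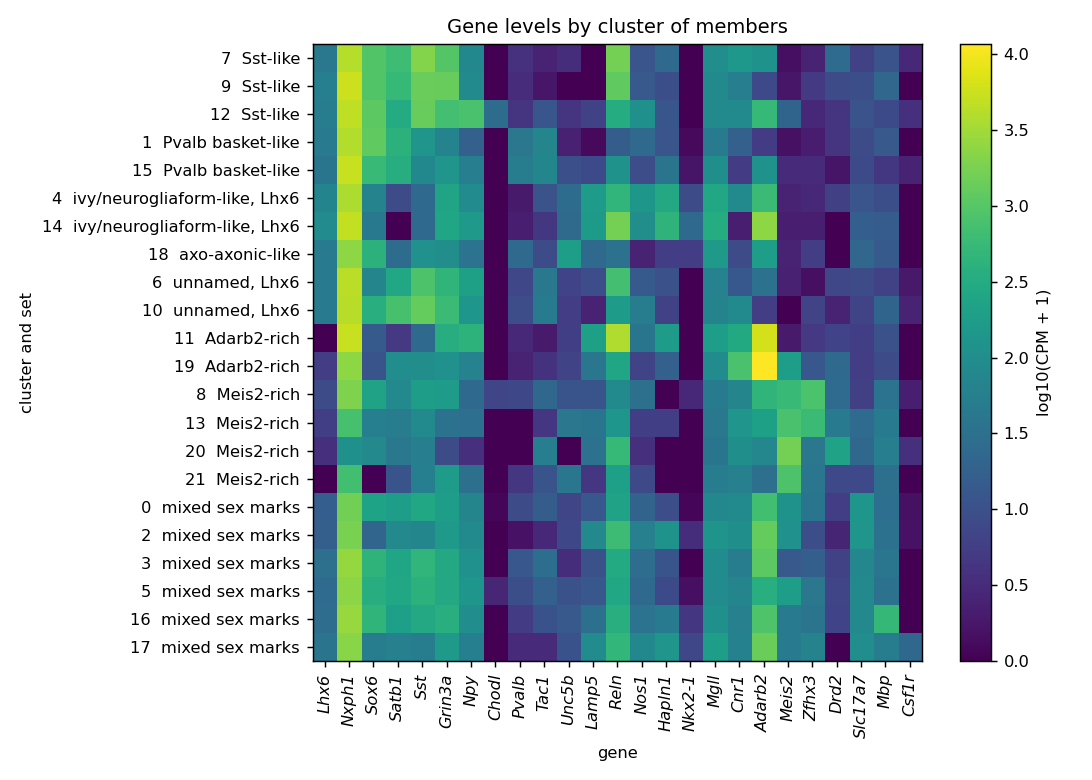
Levels of selected genes in the 22 clusters of members, as log10 of CPM plus 1 (colour), with genes in columns and clusters in rows ordered by set. Lhx6 is at its highest in the first 10 rows and lower, at 15.7 to 35.5 CPM, in the last 6. Adarb2 is at its highest in clusters 11 and 19, Meis2 is high in clusters 8, 13, 20 and 21, and Slc17a7 is high in the last 6 rows.

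The clusters without Lhx6 fell into 2 kinds. Cluster 11 (70 nuclei) had no Lhx6 UMI, Adarb2 at 6469 CPM and Reln at 3900 CPM, and was led by Ndnf and Kit, markers of neurogliaform cells. Cluster 19 (29 nuclei) had Adarb2 at 11694 CPM. Both carried Nxph1, which is in the rule. Clusters 8, 13 and 20 (190 nuclei) were rich in Meis2, a factor of striatal and amygdalar projection neurons. They made up 5.26% [3.10, 8.29] of wild-type members, 17.4% [13.6, 21.8] of 5xFAD members and 9.28%, 8.89% and 8.50% of members of the 3 MAGL-KO libraries. The 5xFAD interval lies above the other 4. Of the 62 such nuclei in 5xFAD, 49 carried Y-linked UMIs only. The 3 clusters were filled by different libraries. Cluster 13, with Col6a3, Glp1r, Ano2 and Zic genes in the lead, held 6, 22, 13, 20 and 1 nuclei, and cluster 20, with the striatal genes Rgs9, Drd2 and Penk among its leading genes, held 0, 9, 0, 1 and 19. Cluster 21 (19 nuclei), left unnamed, was also rich in Meis2 and had Htr2c among its leading genes.

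**Figure D3:**
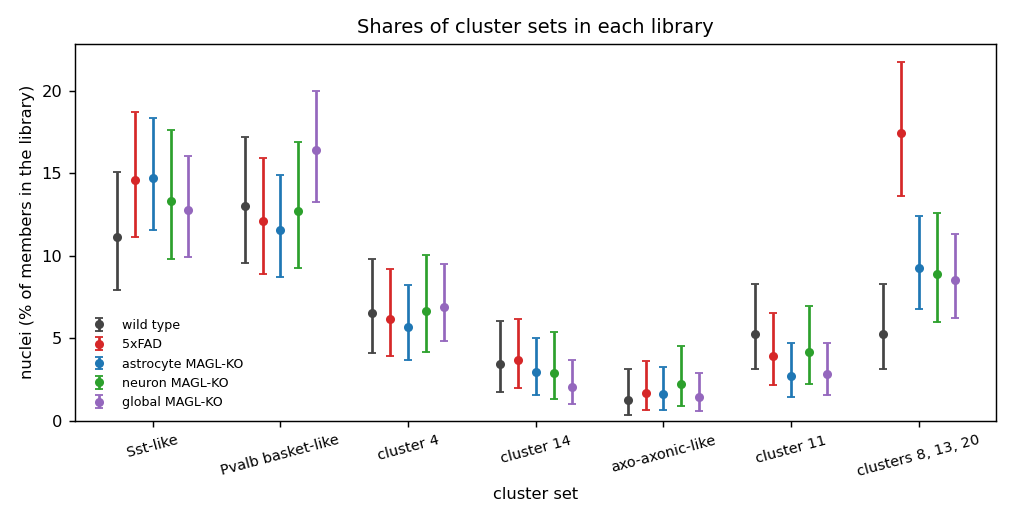
Shares of members (vertical axis, percent) in 7 cluster sets in each of the 5 libraries, with exact 95% intervals of counting error. The intervals of the 5 libraries overlap for the 6 sets at left, and the 5xFAD library stands above the other 4 for the Meis2-rich clusters 8, 13 and 20.

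Against the Adarb2 and Vip lineage, the rule genes Lhx6, Sox6, Nxph1 and Adarb2 differed in the direction set by the rule. Lhx6 stood at 24.1 to 32.2 CPM in members over the 5 libraries against 0.487 to 2.31, Sox6 at 299 to 388 against 3.90 to 28.6, Nxph1 at 2331 to 2904 against 440 to 811, and Adarb2 at 697 to 1235 against 9823 to 13580. Of genes outside the rule, those with the largest ratio in the library where it was smallest were led by the laminin gene Lama4, at 17.2 to 23.4 CPM against 1.2 to 1.7, and held Lypd6, Lypd6b, Moxd1, Gna14, Nek7, Alkal2, Klf5, Eya4 and Crhbp. Crhbp, which encodes a protein that binds corticotropin-releasing hormone, stood at 24.3 to 43.0 CPM against 0.244 to 6.46. At the other end stood Megf10, at 0.722 to 3.52 CPM against 39.3 to 68.2, the chemokine gene Cxcl14 and the cannabinoid receptor gene Cnr1, at 71.5 to 109 against 651 to 806. The transcription factor gene Satb1 (205 to 243 against 71.5 to 98.9 CPM) was higher in members in all 5 libraries. Kcnc2, a potassium channel gene of fast-spiking cells, stood at 1780 to 2527 against 1138 to 1385 CPM.

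Chromatin accessibility was not used to choose the members, so it was tested. Cut sites and RNA come from the same nuclei, so calls at the genes of the rule are not independent of the choice. Cut sites were summed per library and lineage over 112966 regions, and edgeR's quasi-likelihood test with the library as a block called 1623 of them (1.44%) at an adjusted p under 0.05, 982 higher (0.869%) and 641 lower (0.567%) in members. Of these, 929 and 595 had the same direction in all 5 libraries. Regions that hold an annotated start made up 15112 of those tested, and 70 of them were higher and 46 lower, while 912 and 595 of the 97854 other regions were. With the 10 Lhx6 clusters in place of all members, the test called 14377 of 68531 regions (21%), 4805 higher (7.01%) and 9572 lower (14%). Clusters with many nuclei that held Xist and Y-linked UMIs together were left out on the member side of this comparison only. Such nuclei made up 17.9% to 25.1% of the Adarb2 and Vip lineage. The 308 nuclei of the last 6 clusters, with Lhx6 at 0 to 7.85 CPM, were left out as well. The part of these choices in the 14377 calls was not tested. A fit of all members without nuclei of both kinds of sex-linked UMIs, left out on both sides, called 1286 of 78107 regions. Of these 853 were higher and 433 lower. With all members, leaving out 1 library at a time called 800 to 981 regions. The lowest count came without astrocyte MAGL-KO, followed by 910, 919 and 947 without neuron MAGL-KO, global MAGL-KO and 5xFAD, and 981 without wild type.

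Lhx6 had 1 tested region, exonic within the gene (chr2:36090978-36092005, mm10), with 15.1, 9.66, 12.8, 9.23 and 10.7 CPM of cut sites in members against 2.14, 2.78, 6.34, 2.83 and 1.41 in the other lineage. It was higher in 5 of 5 libraries without overlap, by 1.90 on the log2 scale (adjusted p = 0.0001, edgeR). In the 10 Lhx6 clusters, a set itself chosen by Lhx6 RNA, the region was higher by 2.90. In the Sst-like and Pvalb basket-like clusters its medians over libraries were 29.0 and 15.6, against 2.10 in all nuclei. Of 8 tested regions over Nxph1 the 1 that was called, in an intron (chr6:8996124-8997046), was 2.71 higher, with 6.77 to 10.7 against 0 to 3.30. Of all regions 0.869% were higher. None of 14 tested regions over Sox6 was called. The one with the lowest adjusted p lay over a start of Sox6 (chr7:115824277-115825150) and was lower in members in 5 of 5 libraries, at 1.16 to 3.24 CPM against 3.24 to 8.01 (log2 difference -1.09, adjusted p = 0.24, and -2.04 in the 10 Lhx6 clusters, adjusted p = 0.055). Of 4 regions over Sox6 tested with the 10 Lhx6 clusters, 1 was called, and it was higher, where 7.01% of all regions were. No region over Sst or Vip was among those tested.

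Adarb2 and Sp8 had called regions at or near their starts, both lower in members. Adarb2 encodes an RNA-binding relative of the editing enzymes, and Sp8 a zinc finger factor of the caudal and dorsal lateral ganglionic eminences. The region over the start of Adarb2 (chr13:8202387-8203276, exonic and UTR) had 10.6, 14.3, 11, 13.1 and 11.2 CPM of cut sites in members against 15.0, 18.6, 24.2, 23.9 and 28.3, lower in all 5 libraries and without overlap. The log2 difference was -0.84 (adjusted p = 0.0054), and -1.50 in the 10 Lhx6 clusters. Over the gene and 2000 bases on each side, this region included, 10 of 29 tested regions were lower and none higher. Of all regions 0.567% were lower. The Sp8 region (chr12:118846534-118847485) had 5.94, 6.57, 3.99, 4.61 and 3.08 against 23.0, 17.2, 19.4, 7.69 and 13.2, also without overlap. The log2 difference was -1.68 (adjusted p = 2.2e-05). In the Meis2-rich clusters the same Sp8 region had a median of 25.3, and in the Sst-like and Pvalb basket-like clusters 0.

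The promoter sequences of these 2 genes are shown because they lie in the regions that distinguished the lineages. Both are the 250 bases before the RefSeq start on the plus strand of GRCm38.p6, in lower case, with capitals for matches to the homeodomain core TAATTA (its own reverse complement) and the GC box GGGCGG, both searched on both strands. They are motifs known for homeodomain and Sp-family factors. Adarb2 is at chr13:8202616-8202865 and Sp8 at chr12:118846983-118847232.
Adarb2: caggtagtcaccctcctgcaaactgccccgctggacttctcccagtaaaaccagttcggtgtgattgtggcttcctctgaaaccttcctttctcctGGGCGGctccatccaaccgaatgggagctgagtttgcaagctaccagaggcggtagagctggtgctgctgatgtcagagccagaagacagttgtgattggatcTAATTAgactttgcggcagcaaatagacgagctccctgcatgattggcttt
Sp8: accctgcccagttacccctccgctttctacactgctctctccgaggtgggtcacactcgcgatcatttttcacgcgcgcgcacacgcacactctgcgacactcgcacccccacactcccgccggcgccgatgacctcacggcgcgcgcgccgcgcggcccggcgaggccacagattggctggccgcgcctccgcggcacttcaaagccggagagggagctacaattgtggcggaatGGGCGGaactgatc
The Adarb2 window held 1 homeodomain core, starting 51 bases before the start, and 1 GC box 154 bases before it. The Sp8 window held 1 GC box, 14 bases before the start, and no TAATTA. Of 32851 mouse promoter windows of this length, 4.84% held TAATTA and 32.7% a GC box. The 2 motifs share no overlap in these windows.

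Start regions of 4 other genes were not called for all members. The Gad2 start region (chr2:22621929-22622888), over the gene for the synaptic GABA-synthesising enzyme, had 11.8 to 27.8 CPM of cut sites in members against 9.08 to 22.7, a log2 difference of 0.25 (adjusted p = 0.66), and 0.78 in the 10 Lhx6 clusters (adjusted p = 0.0032). The start region of Slc32a1, the vesicular GABA transporter gene, went from 0.23 (adjusted p = 0.47) to 0.82 (adjusted p = 5.3e-06) in the same way. Both calls were gained only with the filter on the member side, so neither is read as a difference between the lineages. The Mgll start region had 31.1 to 36.9 against 23.0 to 39.7 (log2 difference 0.07, adjusted p = 0.90). At the Cnr1 start, members had 15.3 to 22.6 against 23.0 to 36.2, without overlap, with a log2 difference of -0.53 (adjusted p = 0.052). It was called in the 10 Lhx6 clusters, at -0.55 (adjusted p = 0.046). That call too was gained only with the filter on the member side, so it is not read as a difference between the lineages either. Among called regions with the same direction in all 5 libraries, the 5 highest folds, from 4.08 to 4.40 on the log2 scale, were all in regions with 0 cut sites in 3 or more of the 5 Adarb2-lineage sums, so they depend on the prior count of the fit. The highest was in an intron of the axon guidance receptor gene Robo2 (chr16:74241177-74242203). The lowest, at -3.24, was in an intron of Tex15.

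**Figure D4:**
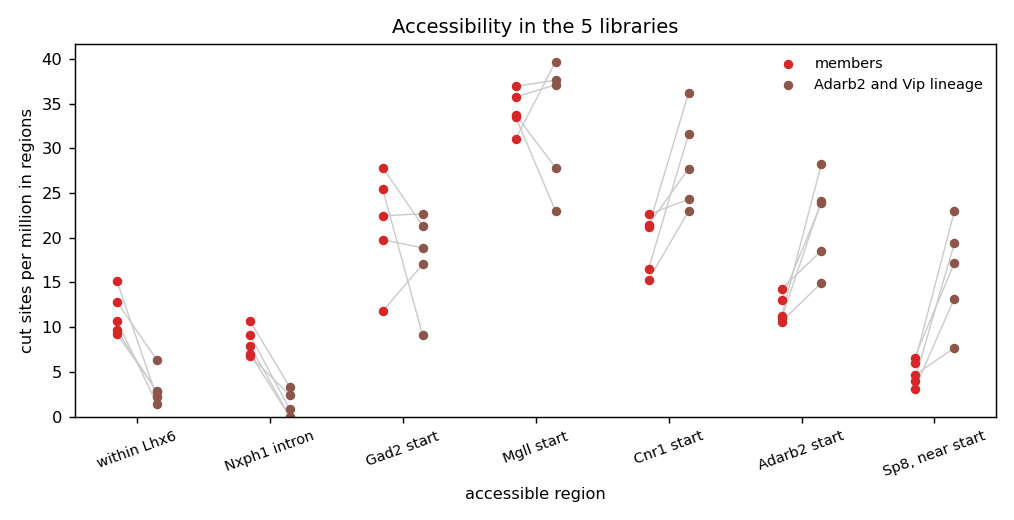
Cut sites as CPM (vertical axis) in 7 accessible regions for members (red) and the Adarb2 and Vip lineage (brown), with 1 pair of points joined by a line for each of the 5 libraries. The regions at Lhx6 and Nxph1 are higher in members and those at Adarb2 and Sp8 lower in every library, while the points at Mgll and Gad2 overlap.

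Mgll, the gene targeted in the 3 knockouts, stood at 102, 103, 109, 97.6 and 92.4 CPM in members, and at 83.3 to 111 CPM in the Adarb2 and Vip lineage. Among all members no MAGL-KO library passed the fold defined below against 5xFAD. In the 10 Lhx6 clusters the levels were 98.1, 134, 127, 111 and 93.5 CPM, and global MAGL-KO was lower than 5xFAD by a log2 ratio of -0.52 [-0.72, -0.32], at about the level of wild type. The labels do not give the deleted exons, and UMIs from outside them check nothing, so these values do not test the labels. Within the lineage Mgll differed between clusters. It reached 269 and 335 CPM in clusters 4 and 14, 156 in the axo-axonic-like cluster 18, and 44.8 to 104 in the other 7 Lhx6 clusters. In cluster 4 the libraries gave 222, 296, 341, 211 and 268 CPM, and in cluster 14 they gave 269, 381, 277, 403 and 353. In the Sst-like clusters the order was 90.2, 113, 89.5, 82.3 and 76.6 CPM, so clusters 4 and 14 exceeded them in every library.

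Other genes of the endocannabinoid system were close to each other over libraries. Dagla and Daglb, which encode the enzymes that make 2-arachidonoylglycerol, stood at 47.7 to 55.6 and 23.3 to 31.3 CPM. Abhd6 and Abhd12, for minor hydrolases, stood at 80.9 to 90.9 and 96.3 to 120 CPM. Of the 8 endocannabinoid genes measured in all members, Cnr1 was the sole gene past the fold, in 1 of 4 comparisons. It was lower in global MAGL-KO than in 5xFAD, at 71.5 against 109 CPM, where 2.62% of all genes were lower. Past the fold in either direction were 4.05% of all genes in 5xFAD against wild type, and 17.3%, 15.6% and 5.21% in astrocyte, neuron and global MAGL-KO. In the 10 Lhx6 clusters its values were 45.9 and 52.2 CPM, a log2 ratio of -0.19 [-0.49, 0.12]. Besides Mgll in global MAGL-KO, Napepld in astrocyte MAGL-KO passed there, at 0.65 [0.05, 1.26]. That is 1 of 8 genes, near the 10.9% of all genes that were higher, and in global MAGL-KO 1 of 8 was lower, where 2.32% of all genes were.

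A gene was counted as past the fold when its log2 ratio of CPM was at least 0.5 in size with an exact interval of counting error that leaves out 0, among genes with 100 or more UMIs over both libraries. Between 5xFAD and wild type 428 of 10560 genes passed (4.05%), 217 higher (2.05%) and 211 lower (2.00%), with a median log2 ratio of 0.01 over all genes. Between astrocyte MAGL-KO and 5xFAD 1928 of 11128 passed (17.3%), 1743 higher (15.7%) and 185 lower (1.66%), with a median of 0.15. Between neuron MAGL-KO and 5xFAD 1728 of 11087 passed (15.6%), 1562 higher (14.1%) and 166 lower (1.5%), with a median of 0.12. Between global MAGL-KO and 5xFAD 574 of 11018 passed (5.21%), 285 higher (2.59%) and 289 lower (2.62%), with a median of 0.01. The 3 MAGL-KO comparisons share the 5xFAD library. With median-of-ratios size factors the split was 880 higher and 439 lower in astrocyte MAGL-KO and 869 and 379 in neuron MAGL-KO. Within the 10 Lhx6 clusters 226 of 6523 genes passed in 5xFAD against wild type (3.46%, with 1.90% higher and 1.56% lower), and 910 of 7284 (12.5%, with 10.9% and 1.62%), 799 of 6850 (11.7%, with 9.34% and 2.32%) and 413 of 7385 (5.59%, with 3.28% and 2.32%) in the 3 MAGL-KO libraries against 5xFAD.

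Thy1 was lower in wild type than in each of the 4 libraries on the 5xFAD background. It encodes a neuronal surface protein, and its promoter drives the 5xFAD transgenes. It stood at 44.8 CPM in wild-type members and at 123, 171, 219 and 131 CPM in the others. The log2 ratio of 5xFAD to wild type was 1.46 [1.30, 1.62], and 1.51 [1.20, 1.83] in the 10 Lhx6 clusters, where the levels were 39.7, 113, 125, 145 and 107 CPM. A Thy1 UMI was seen in 52.1%, 80.9%, 77%, 90.3% and 75.0% of the nuclei of those clusters. The Sst-like clusters had 36.7 CPM in wild type and 119 to 148 in the rest, the Pvalb basket-like clusters 46.4 and 111 to 141, and cluster 4 38.6 and 126 to 170. In the axo-axonic-like cluster 18 the levels were 31.6, 55.6, 133, 154 and 82.6 CPM, with 2 UMIs over 4 nuclei in wild type. The Adarb2 and Vip lineage had a similar log2 ratio of 1.33 [1.06, 1.61]. App, the mouse gene for the amyloid precursor protein as counted on mm10, stood at 549, 588, 582, 616 and 579 CPM.

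The other genes named for 5xFAD against wild type included leading genes of the Meis2-rich clusters, whose share was highest in 5xFAD. The 5 higher genes were Ano2, Zfp521, Zfhx3, Prdm16 and Ankfn1. Ano2, a calcium-activated chloride channel gene, stood at 9.07, 41.6, 18.2, 33.6 and 12.4 CPM, a log2 ratio of 2.20 [1.87, 2.55], and Zfhx3, a homeodomain and zinc finger factor gene, at 40.2, 126, 40.6, 59.1 and 32.6 CPM (1.65 [1.49, 1.82]). In clusters 8, 13 and 20 Zfhx3 ran from 499 to 777 CPM and in the Sst-like clusters from 0 to 4.52, and the 10 Lhx6 clusters gave a log2 ratio of -0.59 for Zfhx3 and -0.17 for Ano2. Over all 5 libraries no Lhx6 cluster held more than 8 Zfhx3 or 15 Ano2 UMIs, so those ratios rest on few UMIs. The lower genes, Itgbl1, Phldb2, Crispld1, Angpt1 and Myof, differed by -1.11 to -0.80. Angpt1 turned to 0.66 in the 10 Lhx6 clusters and to 0.046 after thinning to 5000 UMIs a nucleus. With Xist only, Zfhx3 and Prdm16 turned to -0.78 and -1.97, on 86 and 18 UMIs. Within the 10 Lhx6 clusters the rule gave Thy1, Cpne4, Col5a2, Trpm3 and Ndst4 as higher, and Arhgap24, Dach1, Egfr, Ttc5 and Nfia as lower. All members gave other values for several of them. The log2 ratios there and in all members were 1.23 and -0.04 for Cpne4, 1.06 and -0.36 for Ndst4, -1.61 and -0.25 for Arhgap24, -0.94 and 0.33 for Dach1, and -1.03 and -0.01 for Ttc5. Cpne4, a copine gene, stood there at 76.5, 179, 88.6, 81.5 and 91.3 CPM. Its highest value was in cluster 12 of 5xFAD, at 1141 CPM over 10 nuclei.

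Sst itself was higher in 2 of the 3 MAGL-KO libraries. Members had 311, 292, 568, 489 and 310 CPM. Relative to 5xFAD the log2 ratio was 0.96 [0.90, 1.02] in astrocyte MAGL-KO and 0.74 [0.68, 0.81] in neuron MAGL-KO, and with size factors 0.78 and 0.60. As Sst is in the rule, these levels are a description. The Sst-like clusters had 1380, 1392, 2061, 2024 and 1344 CPM, with intervals of the middle pair of KO libraries that lie above the other 3. Within them cluster 12 did not share this order, at 1967, 974, 1550, 1495 and 1013 CPM. Clusters 6 and 10 gave 562, 509, 1597, 1284 and 576 and 451, 653, 1011, 1806 and 2114 CPM. Thus global MAGL-KO was high in cluster 10 and not in cluster 6. The 5xFAD value of cluster 10 rests on 6 nuclei, and the part of its low share in the Sst level of 5xFAD members was not tested. Among members with Xist UMIs only, the log2 ratio of Sst was 0.49 in astrocyte MAGL-KO and -0.02 in neuron MAGL-KO, against 1.33 and 2.26 with Y-linked UMIs only.

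**Figure D5:**
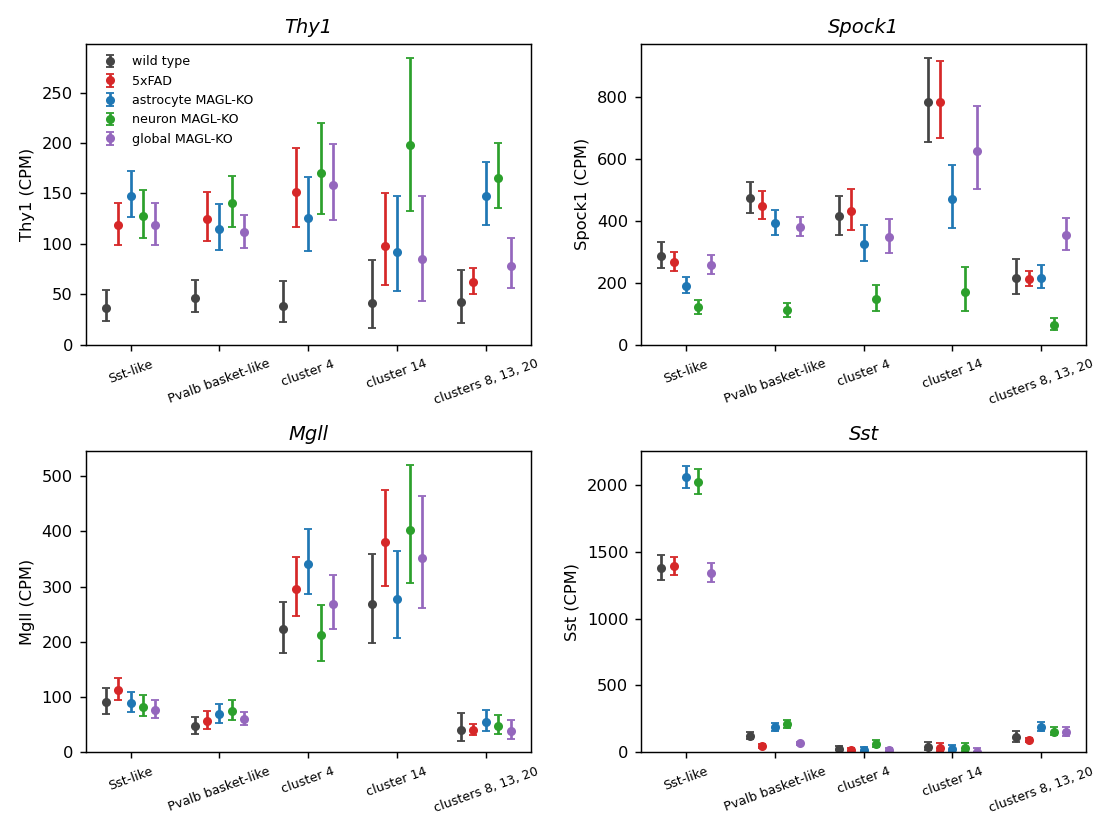
Levels (CPM, vertical axes) of Thy1, Spock1, Mgll and Sst in 5 cluster sets and 5 libraries, with exact 95% Poisson intervals of counting error. Thy1 is lowest in wild type in each set, Spock1 is lowest in neuron MAGL-KO in each set, Mgll is highest in clusters 4 and 14, and Sst of the Sst-like clusters is higher in astrocyte and neuron MAGL-KO.

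The list of neuropeptide genes also holds Crhbp, for a binding protein of a peptide hormone, and Nos1, for nitric oxide synthase, which is no peptide. Of its 9 measured genes 5 were higher and 1, Nos1, lower in astrocyte MAGL-KO than in 5xFAD, where 15.7% of all genes were higher (median log2 ratio 0.53 beside 0.15 for all genes). In neuron MAGL-KO 8 were higher, against 14.1% of all genes (0.78 beside 0.12), and in global MAGL-KO 3 were higher, against 2.59% (0.06 beside 0.01). Within the 10 Lhx6 clusters 3 of 7 were higher and 1 lower in astrocyte MAGL-KO, 5 of 8 higher and 1 lower in neuron MAGL-KO, and 1 of 8 higher and 1 lower in global MAGL-KO. Of all genes measured in those clusters 10.9%, 9.34% and 3.28% were higher and 1.62%, 2.32% and 2.32% lower. With size factors the first 2 medians were 0.35 and 0.64. Between 5xFAD and wild type 1 of 9 was higher and 1 lower, where 2.05% and 2.00% of all genes were, with a median of -0.20. In the 10 Lhx6 clusters none of 7 was higher and 2 were lower in that comparison, where 1.56% of all genes were lower. Npy, which encodes neuropeptide Y, stood at 77.4, 88.2, 152, 143 and 85.5 CPM, and Vgf, for a secreted granule protein, at 24.0, 20.4, 28.4, 45.4 and 21.3 CPM. Vgf was 1.15 [0.92, 1.39] higher in neuron MAGL-KO on the log2 scale, 1.52 in the 10 Lhx6 clusters and 1.18 in the Adarb2 and Vip lineage. Cck stood at 67.2, 58.7, 84.8, 101 and 50.7 CPM, and Tac1, the substance P precursor gene, at 17.6, 10.9, 25.7, 21.7 and 20.3 CPM. Nos1 went the other way in astrocyte MAGL-KO, by -0.60 [-0.81, -0.39], and by -1.20 in the 10 Lhx6 clusters. There it differed in cluster 12, at 141, 368, 9.69, 47.0 and 54.1 CPM, while cluster 4 had 125 to 159 CPM. Chodl, the other long-range marker, stood at 60.5, 100, 0, 2.61 and 9.55 CPM in cluster 12, which held 5, 10, 19, 15 and 16 nuclei.

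Of 20 nuclear-encoded genes of oxidative phosphorylation 12 were higher and none lower in astrocyte MAGL-KO than in 5xFAD, where 15.7% of all genes were higher. The median log2 ratio was 0.58 beside 0.15 for all genes, and 0.40 with size factors. In neuron MAGL-KO 10 of 20 were higher and none lower, where 14.1% of all genes were higher, with a median of 0.51 beside 0.12, and 0.36 with size factors. No gene of this list passed in 5xFAD against wild type or in global MAGL-KO against 5xFAD, where the medians were -0.01 and 0.06. The median mitochondrial share of a member's UMIs was 0.0133%, 0.0156%, 0.0186%, 0.0195% and 0.0138% in the 5 libraries, and so also highest in astrocyte and neuron MAGL-KO, and its part in the result was not tested. Sdhb, of succinate dehydrogenase, stood at 27.9, 28.1, 47.9, 46.6 and 35 CPM, and Cox4i1, of cytochrome c oxidase, at 42.6, 50.7, 72.0, 72.8 and 44.5 CPM. Atp5g3, of the ATP synthase, stood at 12.5, 11.3, 20.8, 19.6 and 12.6 CPM. Of 19 genes measured in the 10 Lhx6 clusters 9 were higher in astrocyte MAGL-KO (10.9% of all genes were) and 5 in neuron MAGL-KO (9.34%). The Adarb2 and Vip lineage gave log2 ratios for Sdhb of 0.69 and 0.83.

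Of genes induced by neuronal activity, 6 of 9 measured were lower in astrocyte MAGL-KO than in 5xFAD (1.66% of all genes were), 4 of 10 in neuron MAGL-KO (1.5% of all genes), with Bdnf higher, and 5 of 10 in global MAGL-KO (2.62% of all genes). The medians were -0.61, -0.37 and -0.53, beside 0.15, 0.12 and 0.01 for all genes. Between 5xFAD and wild type 1 of 11 was higher and 1 lower, where 2.05% and 2.00% of all genes were. Egr1, an immediate early transcription factor gene, stood at 8.96, 9.79, 3.61, 5.74 and 4.87 CPM, and Npas4 at 7.92, 10.7, 5.87, 5.47 and 5.10 CPM. Homer1, for a synaptic scaffold, stood at 297, 324, 220, 235 and 256 CPM. The 10 Lhx6 clusters carried too few UMIs of these genes to measure more than 1 or 2 of them, and none of those passed against 5xFAD. Excitatory nuclei express the same genes strongly, and the excitatory markers in members are given above. Their part in the result was not tested.

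The lists for channels, GABA handling and release, synapse partners, glutamate and modulator receptors, and calcium binders and extracellular matrix had median log2 ratios of -0.10 to 0.17 in the 4 comparisons. In 5xFAD against wild type, where 2.05% of all genes were higher, 2 of 9 calcium binder and matrix genes (Pvalb and Hapln4) and 2 of 12 receptor genes (Chrm2 and Htr2c) were higher. In the 10 Lhx6 clusters none of 6 and 1 of 12 were higher, where 1.90% of all genes were. Chrm2 and Htr2c did not pass there, at 151 and 32.2 CPM in wild type and 190 and 27.7 CPM in 5xFAD. Of 13 channel genes, Kcnc2 in global MAGL-KO was the sole gene past the fold, at 2527 against 1780 CPM. Of all genes 2.59% were higher in that comparison, and 15.7% and 14.1% in astrocyte and neuron MAGL-KO. With size factors the log2 ratio of Kcnc2 was 0.49. In the 10 Lhx6 clusters it stood at 4148 against 3360 CPM, and none of the 13 channel genes passed there in this comparison. Rab3a, for a vesicle GTPase, was higher in astrocyte and neuron MAGL-KO, at 17.2, 18.3, 34.9, 26.8 and 17.6 CPM. It was the 1 of 15 genes of GABA handling and release called in astrocyte MAGL-KO, and 2 of 15 were higher in neuron MAGL-KO. These shares of higher genes are not above the 15.7% and 14.1% of all genes. In neuron MAGL-KO 1 of 15, Syt2, was lower, where 1.5% of all genes were. Nxph2, a neurexin ligand gene, was higher in all 3, at 26.5, 23.2, 34.7, 42.2 and 42.7 CPM. In the 10 Lhx6 clusters it stood at 48.2, 45.3, 65.9, 83.2 and 60.9 CPM. There none of 9 synapse partners passed in global MAGL-KO. Of the synapse partners in all members 2 of 11, 1 of 10 and 1 of 11 were higher in astrocyte, neuron and global MAGL-KO. Of all genes 15.7%, 14.1% and 2.59% were, so the first 2 shares lie near those over all genes. Pvalb stood at 5.31, 8.88, 11.6, 10.8 and 8.51 CPM in members, and at 27.1, 56.8, 58.6, 49.2 and 31.3 CPM in the Pvalb basket-like clusters, where wild type and global MAGL-KO were lowest. Within the 10 Lhx6 clusters 3 of 8 calcium binder and matrix genes were lower in global MAGL-KO than in 5xFAD, namely Pvalb, Hapln1 and Reln, where 2.32% of all genes were. Reln, the gene of the matrix glycoprotein reelin, had a log2 ratio of -0.62 [-0.70, -0.53]. Calb1, the calbindin gene, was higher in astrocyte MAGL-KO there, by 0.89 [0.59, 1.19]. That is 1 of 7 genes, near the 10.9% of all genes that were higher. In neuron MAGL-KO 1 of 7, Calb1, was higher there (68.2 against 43.1 CPM) and 1, Hapln1, lower (57.6 against 82.4), where 9.34% and 2.32% of all genes were.

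Of 12 measured transcription factor genes none passed in 5xFAD against wild type, and 4, 2 and 1 were higher in astrocyte, neuron and global MAGL-KO than in 5xFAD, where 15.7%, 14.1% and 2.59% of all genes were. The 2 of 12 in neuron MAGL-KO lie near the share over all genes. Nr2f2, for the orphan receptor COUP-TFII, was among the higher genes in all 3, at 10.0, 7.96, 20.0, 13.8 and 13.4 CPM. Of 9 such genes measured in the 10 Lhx6 clusters, 1 was higher in astrocyte MAGL-KO, none passed in neuron MAGL-KO and 1 was lower in global MAGL-KO, and the level of Nr2f2 was under the UMI minimum there. The 1 of 9 in astrocyte MAGL-KO lies near the 10.9% of all genes that were higher, and 2.32% of all genes were lower in global MAGL-KO. Of 10 measured amyloid genes 2 were higher in 5xFAD (Apoe and Thy1), 1 lower in astrocyte (Apoe), 2 higher in neuron (Thy1 and Aplp1) and 1 lower in global MAGL-KO (Apoe), where 2.05%, 1.66%, 14.1% and 2.62% of all genes were. Apoe, the apolipoprotein E gene and in brain mainly a glial transcript, stood at 16.7, 26.6, 15.4, 25.1 and 13.7 CPM. Its log2 ratio was 0.68 in 5xFAD against wild type, and -0.79, -0.09 and -0.96 in astrocyte, neuron and global MAGL-KO against 5xFAD. Apoe was a leading gene of cluster 17, at 125 CPM against 16.5 in other members. In the 10 Lhx6 clusters 1 of 8 amyloid genes, Thy1, was higher in 5xFAD (1.90% of all genes were), and none of 9 passed in astrocyte or global MAGL-KO. In neuron MAGL-KO 2 of 9 were higher there (9.34% of all genes were), and Thy1, at 145 against 113 CPM, was not among them.

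Htr2c, the serotonin 2C receptor gene, had opposite directions in all members and in the 10 Lhx6 clusters. In all members it stood at 62.9, 161, 106, 120 and 112 CPM, highest in 5xFAD, and in clusters 8, 13 and 20 at 532, 463, 499, 235 and 536 CPM. In the 10 Lhx6 clusters it stood at 32.2, 27.7, 75.4, 94.1 and 101 CPM, and the log2 ratios of the 3 MAGL-KO libraries to 5xFAD were 1.45 [1.09, 1.81], 1.76 [1.41, 2.13] and 1.87 [1.53, 2.21]. It was higher there in 3 of 3 MAGL-KO libraries. In the Pvalb basket-like clusters Htr2c stood at 25.8, 41.7, 74.0, 32.0 and 93.3 CPM, in cluster 4 at 113, 97.9, 195, 153 and 187, and in cluster 6 at 32.1, 0, 204, 331 and 246. In the Adarb2 and Vip lineage the 3 ratios were 0.03, 0.02 and 0.06.

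Spock1 had the lowest level in neuron MAGL-KO in each named type. It encodes testican, a secreted proteoglycan. Members had 385, 360, 340, 114 and 387 CPM, a log2 ratio of neuron MAGL-KO to 5xFAD of -1.66 [-1.76, -1.57], and the 10 Lhx6 clusters had 453, 417, 353, 142 and 374 CPM. A Spock1 UMI was seen in 94.5%, 91.7%, 88.3%, 61.4% and 89.7% of the nuclei of those clusters. The Pvalb basket-like clusters had 475, 449, 393, 111 and 381 CPM, the Sst-like clusters 287, 267, 190, 121 and 259, and cluster 14 784, 786, 472, 171 and 627. The Adarb2 and Vip lineage had a log2 ratio of -1.55 [-1.68, -1.42] for the same comparison, and all nuclei one of -1.51.

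Several other genes named by size differed alike in the Adarb2 and Vip lineage and over all nuclei of the libraries. Over all nuclei the log2 ratios to 5xFAD in astrocyte, neuron and global MAGL-KO were 1.47, 1.41 and 0.91 for AC149090.1. They were -1.53 and -1.81 for Cfap54 in the first 2, 1.67 for Ndn in astrocyte and 1.36 for Mthfs in global MAGL-KO. AC149090.1, a gene model without an assigned function, stood at 264, 204, 586, 588 and 416 CPM, and its log2 ratios to 5xFAD of 1.53, 1.53 and 1.03 had counterparts of 1.56, 1.53 and 1.04 in the other lineage. It was higher in the 3 MAGL-KO libraries in each Lhx6 cluster set. Ndn, the imprinted gene for necdin, stood at 6.46, 6.13, 24.1, 16.5 and 12.1 CPM, with log2 ratios in astrocyte MAGL-KO of 1.98 in members and 2.15 in the other lineage. Cfap54, a cilium gene, stood at 87.2, 104, 34.1, 32.0 and 35 CPM, and its ratios in astrocyte and neuron MAGL-KO were -1.60 and -1.70, against -1.13 and -1.23. Mthfs, a folate enzyme gene, was higher in global MAGL-KO alone, at 131 CPM against 52.1 to 69.1, with log2 ratios of 1.14 in members and 0.97 in the other lineage.

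The further genes of the rule were mostly low in level. In astrocyte MAGL-KO Kcnh8, Dynlt1b and Grp were higher, and Dnah6, Styk1, Zfhx3 and Prdm16 lower than in 5xFAD. Dynlt1b and Dnah6 had log2 ratios of 2.11 and -2.45 in members. In the Adarb2 and Vip lineage they had 3.41 and -4.63, and over all nuclei 2.32 and -2.34. In that lineage and over all nuclei Grp had 1.14 and 1.40, Styk1 -0.98 and -1.18, and Zfhx3 -0.12 and -0.87. Kcnh8 had 0.44 and -0.23 there, and Prdm16 0.77 and -1.08. Styk1 turned to 0.83 in the 10 Lhx6 clusters. With Xist UMIs only, Styk1, Zfhx3 and Prdm16 turned to 1.23, 2.47 and 4.26, on 16, 302 and 109 UMIs. In neuron MAGL-KO Grp, Angpt1, Snhg9 and Zfp973 were higher, and Dnah6, Abca6 and Ankfn1 lower. In the Adarb2 and Vip lineage and over all nuclei Grp had 1.31 and 1.58, Snhg9 1.87 and 1.63, and Zfp973 1.13 and 1.38. Dnah6 had -3.38 and -2.04 there, Abca6 -1.73 and -1.06, Ankfn1 -0.61 and -0.67, and Angpt1 0.43 and -0.20. Ankfn1 turned to 0.23 in the 10 Lhx6 clusters and 1.12 with Xist only, and among members with Y-linked UMIs only all 40 Angpt1 UMIs of the pair of libraries were in 5xFAD. In global MAGL-KO Banf2, Phldb2 and Ebf1 were higher, and Prdm16, Zic1, Zic4, Col6a3 and Prkcd lower, at log2 ratios of -4.47 to -2.95. In the Adarb2 and Vip lineage and over all nuclei Phldb2 went the other way, at -2.61 (on 14 UMIs) and -0.33. The other genes kept their direction in both. Among members with Xist only the ratios turned to 1.06 for Prdm16, 0.23 for Zic1, 1.45 for Zic4, 0.64 for Prkcd and -0.79 for Ebf1. These rest on 19, 4, 8, 5 and 67 UMIs. Zic1, a zinc finger factor gene, stood at 7.61, 19.8, 6.95, 10.9 and 1.16 CPM. Zic1, Zic4 and Col6a3 are among the leading genes of cluster 13, in which global MAGL-KO had 1 nucleus.

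Gna14 was lower in the 3 MAGL-KO libraries within the 10 Lhx6 clusters. It encodes a G protein alpha subunit of the Gq family, and stood at 68.0, 83.4, 30.7, 41.9 and 29.8 CPM, with log2 ratios to 5xFAD of -1.44 [-1.77, -1.11], -0.99 [-1.31, -0.68] and -1.49 [-1.80, -1.18]. The Sst-like clusters had 144, 127, 42.5, 83.4 and 71.2 CPM, the Pvalb basket-like clusters 101, 79.9, 48.6, 45.7 and 30.1, and cluster 4 at most 5.87. Both types had their 2 highest values in wild type and 5xFAD. Ide, for the insulin-degrading enzyme, a protease that also cleaves amyloid beta, was lowest in global MAGL-KO, at 92.5, 113, 74.3, 97.1 and 51.0 CPM. Its log2 ratio there was -1.15 [-1.40, -0.91] in the 10 Lhx6 clusters and -0.61 [-0.85, -0.37] in the Adarb2 and Vip lineage.

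The remaining genes given by the rule in the 10 Lhx6 clusters included Gpc5, a glypican gene, which rested on few nuclei. It stood at 17.4, 10.7, 131, 18.4 and 73.4 CPM, and its log2 ratios of astrocyte and global MAGL-KO to 5xFAD were 3.61 and 2.78 there, against 0.88 and 0.40 over all members. In astrocyte MAGL-KO 19 of 213 nuclei had a Gpc5 UMI and 1 nucleus gave 25.2% of them, and clusters 6 and 12 held the highest levels, at 423 and 552 CPM. Tuba1b was also higher in astrocyte MAGL-KO, and Col5a2, Cpne4 and Frem1 lower, Cpne4 by -1.02 there and -0.20 over all members. In neuron MAGL-KO Grm8, Vgf and Ttr were higher, and Ano3, Cpne4 and Olfm3 lower. Over all members the log2 ratio was -0.14 for Ttr (1.43 in those clusters), 0.10 for Grm8 (1.34), -0.26 for Ano3 (-1.12) and -0.19 for Cpne4 (-1.14). Olfm3, for a secreted olfactomedin protein, stood at 469, 456, 449, 230 and 424 CPM. In global MAGL-KO Agbl1, Khdrbs2 and Phldb2 were higher, and Rgs6, Nos1 and Thsd7b lower. Khdrbs2 and Thsd7b had 0.14 and 0.02 over all members, against 1.46 and -1.06 in those clusters. Rgs6, a regulator of G protein signalling, stood at 400, 473, 332, 350 and 220 CPM.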

How the data were processed

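Single-nucleus RNA and chromatin data of 5 libraries were made with Cell Ranger ARC 2.0.0 and Seurat on mm10, per the submitters' processing notes. The deposited matrices hold raw counts, namely UMIs per gene and cut sites per peak as the authors deposited them. The libraries held 101931020 to 159532813 UMIs. The members and lists were chosen with earlier results of these data known.

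Counts were read in Python 3.11.15, and nuclei with at least 1000 genes were kept. Member UMIs were summed per library, expressed as CPM and compared as log2 ratios with exact conditional intervals. Members were clustered with scanpy 1.11.5 and leidenalg 0.10.2 (2000 variable genes, 30 components, 15 neighbours, resolution 1). No doublet caller was run, and leaving out nuclei with Xist and Y-linked UMIs together served as an alternative. The 10 Lhx6 clusters are those with Lhx6 of at least 35 CPM and Xist with Y-linked UMIs in under 30% of nuclei, a set chosen after seeing the data.

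Named genes were every gene of 12 lists (154 genes) and, in each comparison and direction, the 5 genes whose interval end nearest to 0 was farthest from 0, among genes with 100 or more UMIs and a CPM in members of at least 0.5 times that in all nuclei, without mitochondrial, Xist, Tsix, Y-linked, Gm-numbered and Rik genes. Lineage genes were the 10 highest and 10 lowest by the ratio in the library where it was nearest to 0. Named regions were called ones within 2000 bases of a start of a gene in the rule or transcription factor lists, and the 5 highest and 5 lowest with the same direction in all 5 libraries. The same rule was applied to the 10 Lhx6 clusters. The Pvalb, Hapln1, Reln, Calb1 and Napepld calls in those clusters, and genes that lead a cluster, were chosen after their values were seen.

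Peaks of the 5 libraries were merged into 220575 regions (median 935 bases), of which 129588 were listed in all 5. Cut sites per region were summed per library for members and for the Adarb2 and Vip lineage and tested with edgeR 4.0.16 (R 4.3.3; TMM, quasi-likelihood test, library as a block, Benjamini-Hochberg adjustment over 112966 regions), after a check on simulated data. Both sums of a library come from 1 nucleus preparation. The correlations of their deviations from the lineage means were 0.02 to 0.07. DESeq2 1.42.0 was an alternative. Promoter sequences are from RefSeq (GRCm38.p6). Some items of the lists and named regions are not reported here.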

Additional observations from a re-analysis of the deposited data

Results flagged for a closer look

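Of the 40 log2 ratios of genes named for their size, 13 had opposite signs in members with Xist UMIs only and in those with Y-linked UMIs only. In 5 of these both ratios were 0.5 or more from 0 and each rested on at least 50 UMIs, and they are given here. These differences were not tested, and each group comes from 1 library a genotype.

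Zfhx3 in 5xFAD against wild type had a log2 ratio of -0.78 with Xist only (86 UMIs over both libraries) and 1.51 with Y-linked UMIs only (1132 UMIs), a difference of -2.28. In astrocyte MAGL-KO against 5xFAD Zfhx3 had 2.47 and -4.17, a difference of 6.64. Prdm16 had 4.26 and -3.53 in the same comparison, a difference of 7.79. Ankfn1 in neuron MAGL-KO against 5xFAD had 1.12 and -0.54, a difference of 1.66. Ebf1 in global MAGL-KO against 5xFAD had -0.79 and 3.69, a difference of -4.47. Zfhx3, Prdm16 and Ebf1 are among the 10 leading genes of Meis2-rich clusters. Of the 62 nuclei in clusters 8, 13 and 20 of 5xFAD, 49 carried Y-linked UMIs only, against 10 of 41 in astrocyte and 10 of 42 in global MAGL-KO.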

How the results depend on the processing

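No paired analysis between genotypes was possible because each genotype has 1 library. For the regions, the fit with no replicate block, which drops the library pairing, called 1865 against 1623 regions. Leaving out 1 library at a time called 800 to 981, a GABA score of 1.5 or more 689, and the 10 Lhx6 clusters 14377. The other 7 settings stayed within 1.5 times the main count.

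Counts of genes past the fold, in the order 5xFAD, astrocyte, neuron and global MAGL-KO, were 142, 818, 708 and 231 with a pseudocount of 5 CPM, 839, 2937, 2727 and 1073 with a minimum of 20 UMIs, and 205, 550, 419 and 265 after thinning to 5000 UMIs. The mean over members gave 741 in 5xFAD and 910 in global MAGL-KO. Nuclei with Xist only gave 1141 in astrocyte MAGL-KO, and those with Y-linked UMIs only gave 1255 in astrocyte and 1032 in neuron MAGL-KO. The 10 Lhx6 clusters gave 226, 910 and 799 in the first 3 comparisons.

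Shares of members, in library order, were 4.42%, 4.84%, 5.41%, 6.11% and 5.04% with a GABA score of 1.5 or more, and 7.51%, 8.78%, 9.54%, 10.2% and 8.58% without nuclei of a high excitatory score. A score margin of 0.25 gave 6.03% in 5xFAD, 6.60% in astrocyte and 5.98% in global MAGL-KO. Without nuclei with Xist and Y-linked UMIs together the shares were 5.54%, 6.16%, 6.53% and 6.99% in the first 4 libraries.

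In the 10 Lhx6 clusters the sign turned for Ano2 (-0.17), Zfp521 (-0.056), Zfhx3 (-0.59), Prdm16 (-0.66) and Angpt1 (0.66) in 5xFAD, Styk1 (0.83) in astrocyte and Ankfn1 (0.23) in neuron MAGL-KO, and the Dlx5 start region (0.66). Over all 5 libraries no Lhx6 cluster held more than 15 Ano2, 8 Zfhx3 or 7 Prdm16 UMIs, so the turns of these genes rest on few UMIs. With Xist only the sign turned for Zfhx3 (-0.78) and Prdm16 (-1.97, on 18 UMIs) in 5xFAD, Styk1 (1.23, on 16 UMIs), Zfhx3 (2.47) and Prdm16 (4.26) in astrocyte, Ankfn1 (1.12) in neuron, and Ebf1 (-0.79), Prdm16 (1.06), Zic1 (0.23), Zic4 (1.45) and Prkcd (0.64) in global MAGL-KO. It also turned for the medians of calcium binders and matrix genes in neuron (-0.076) and channels in global MAGL-KO (-0.019). Thinning turned Angpt1 in 5xFAD (0.046). Causes were not tested. Of 508 values of genes named by size under alternatives, 335 moved by less than the counting interval.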
